A study of Mus musculus with 6 samples.

Results

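The genes described here are 9 members of the AIM2 inflammasome and caspase-1 pathway: *Aim2*, *Casp1*, *Casp4*, *Nlrp3*, *Pycard*, *Gsdmd*, *Il1a*, *Il1b* and *Il18*. They were taken by gene symbol from a table of 20409 genes, and were chosen because the measured levels of *Aim2* and *Casp1* in these libraries were nearly lost in 1 genotype. Of the 9, 8 had values, 6 passed a filter on low expression (a mean of at least 1 CPM, read counts scaled to the total of each library, over all libraries) and 2 (*Nlrp3* and *Il18*) fell below it. Expression of *Il1b* was not analysed here, although the sequence upstream of it was searched. Because the choice rests on the contrast between the genotypes, all member values are given as a description. No p-value is given for them. Their standard errors and intervals come from a fit that shares variance between genes, and cover no variation beyond that between libraries.

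RNA-Seq was performed on 6 libraries of cultured, untreated murine lung endothelial cells (LECs), 3 from control mice and 3 from mice lacking adipose triglyceride lipase (ATGL) in endothelium. The study's main text names *Atgl* fl/fl littermates, with the floxed alleles alone, as controls. Its cell culture methods name wild type littermates for these cells, and the control library titles read WT. *Atgl* ECKO cells carried floxed *Atgl* alleles and Cre recombinase driven by the VE-cadherin (*Cdh5*) promoter, which acts in endothelium from development onwards. Cells of both genotypes were selected on CD31 and immortalized with middle T antigen, so that antigen is shared by all groups. The study's methods name male mice for all experiments, but give no age for the donors of these cells and do not say whether libraries of 1 genotype came from separate animals or cultures. Replicate spread may therefore be technical, and genotype and line of origin cannot be told apart. The 4 Y-linked genes tested were at 1.16% to 1.45% of their control level in *Atgl* ECKO libraries. These values do not settle the sex of the donors, which was not tested.

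AIM2 binds double-stranded DNA in the cytosol and, through the adaptor PYCARD (ASC), gathers and activates caspase-1. Active caspase-1 cleaves the precursors of IL-1β and IL-18 and the pore-forming protein gasdermin D, which opens the plasma membrane in pyroptosis. NLRP3 uses the same adaptor and caspase in response to ion fluxes and danger signals, while the product of mouse *Casp4* (also called caspase-11) senses cytosolic lipopolysaccharide and cleaves gasdermin D directly. The pathway is best known from macrophages, and several of its genes are induced by interferons.

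The deleted gene served as a check of the labels. *Pnpla2*, which encodes ATGL, was at 27.6, 26.3 and 30.1 CPM in control LECs and at 9.97, 9.11 and 9.13 CPM in *Atgl* ECKO LECs, 33.6% of the control level (log2 fold change -1.48 ± 0.06 SE, adjusted p = 1.84e-12, limma; exact 2-sided permutation p = 0.1, the smallest that 3 against 3 libraries allow). In each library 1 CPM was worth 55.6 to 69.1 reads. All 10 endothelial markers were present, with a summed level of 4851 to 5029 CPM in control and 4918 to 5256 CPM in *Atgl* ECKO libraries. Single endothelial markers differed in both directions, with 4 called higher, 4 lower and 2 not called. They ranged from *Vwf* at 38.93% to *Cldn5* at 381% of the control level. The summed level of 10 leukocyte markers was 29.7 to 32.7 CPM in control and 82.5 to 94.2 CPM in *Atgl* ECKO libraries. Most of that difference lay in *Cd68* (18.4 to 65.4 CPM) and *Coro1a* (2.48 to 11.9 CPM). *Csf1r* averaged 0.564 and 0.382 CPM in the respective genotypes, and *Cd14* 4.43 and 4.07 CPM. Of these 10, *Itgam*, *Fcer1g* and *Cd79a* were under 0.5 CPM in every library. Of the 5 that passed the filter, 3 were called higher (*Cd68*, *Coro1a* and *Itgax*, the last from 1.69 to 2.33 CPM) and 2 were not called. The other lists, 10 fibroblast, smooth muscle and pericyte markers (311.5 to 353.8 against 364.2 to 434.8 CPM) and 7 lung epithelial and mesothelial markers (18.2 to 19.1 against 42.3 to 44.6 CPM), had higher sums in *Atgl* ECKO libraries, with *Col1a2*, *Dcn*, *Pdgfra*, *Epcam*, *Cdh1*, *Sftpb* and *Msln* under 0.5 CPM throughout. Of 4 tested in the former list, *Tagln* (158.5 to 270.7 CPM) and *Cnn1* (8.08 to 14.1 CPM) were called higher. *Acta2* was lower (166.6 to 115.6 CPM) and *Myh11* was not called. Below the filter, *Col1a1* and *Col3a1* were at 29.99% and 8.07% of control and *Pdgfrb* was at 324.6%. All 3 tested in the latter list were called higher, namely *Krt18* (15.4 to 36.55 CPM), *Krt8* (1.89 to 4.95 CPM) and *Ager* (1.02 to 1.48 CPM). The part of these marker differences in the results below was not tested. In these bulk libraries, fewer cells expressing a gene and less RNA per cell cannot be told apart.

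The sensor of the pathway, *Aim2*, was abundant in control LECs and nearly absent from *Atgl* ECKO LECs. It was at 31.2, 30.1 and 29.5 CPM in control libraries 1, 2 and 3 and at 0.412, 0.292 and 0.489 CPM in *Atgl* ECKO libraries 1, 2 and 3. Every *Atgl* ECKO library was far below every control library, and the groups were separated by a gap much wider than either group's own range. The mean of 0.398 ± 0.0996 CPM (SD, n = 3) was 1.31% of the control mean of 30.3 ± 0.867 CPM, a 76.2-fold lower level. On the log2(CPM + 1) scale, which understates changes of genes with low values, the difference was -4.49 ± 0.07 (SE, 95% confidence interval -4.63 to -4.35). In reads, the control libraries held 5786 *Aim2* reads in all and the *Atgl* ECKO libraries 76. The coefficient of variation between the *Atgl* ECKO libraries was 25.04%, where counting error alone gives 19.9%.

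The effector protease, *Casp1*, showed the same shape. It was at 36.2, 35.3 and 35.8 CPM in control libraries and at 0.222, 0.292 and 0.367 CPM in *Atgl* ECKO libraries. No library of 1 genotype came near a library of the other. The *Atgl* ECKO mean of 0.294 ± 0.0727 CPM was 0.821% of the control mean of 35.8 ± 0.453 CPM, a 122-fold lower level, and the log2 difference was -4.83 ± 0.06 (interval -4.96 to -4.70). The 3 *Atgl* ECKO libraries held 56 *Casp1* reads against 6834 in control, and their spread (24.8%) was again close to the counting error (23.2%). Per kilobase of exon, *Casp1* was the most abundant member in control LECs at 23.9 CPM per kb, above *Gsdmd* at 11.1 and *Aim2* at 8.65 CPM per kb. In *Atgl* ECKO LECs the *Casp1* level was 0.196 and the *Aim2* level 0.114 CPM per kb, below all members with values except *Il18*.

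**Figure D1:**
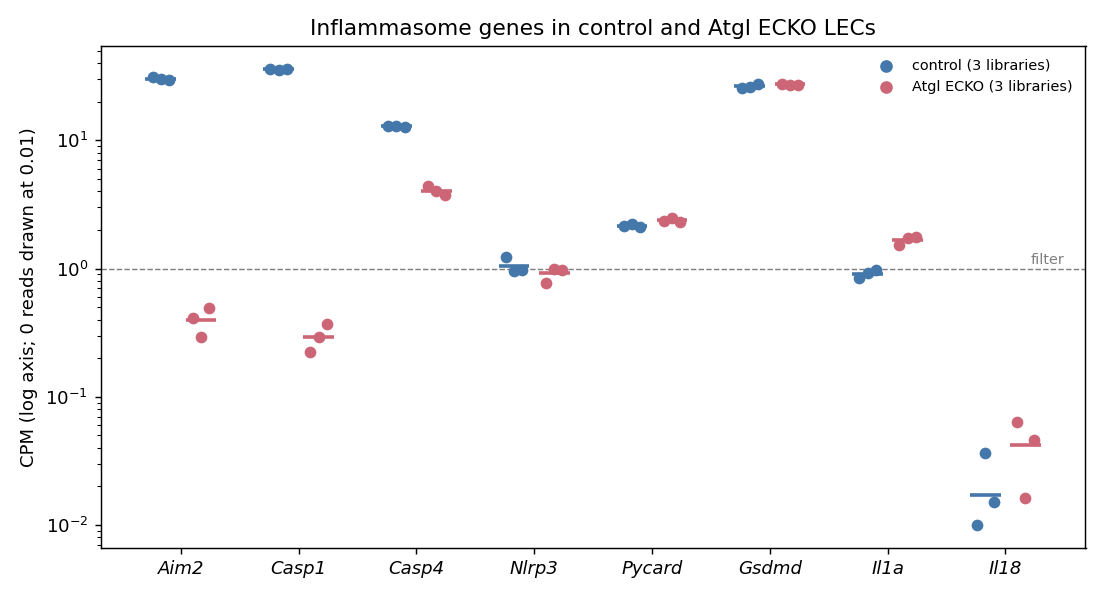
Level of the 8 members with values in each library (points, CPM on a log axis, with 0 reads drawn at 0.01) and the mean of each genotype (bars). *Aim2* and *Casp1* average 30.3 and 35.8 CPM in control LECs and are under 0.5 CPM in every *Atgl* ECKO library, *Casp4* is lower by 3.19-fold, *Gsdmd* and *Nlrp3* overlap between genotypes, and the dashed line marks the filter of 1 CPM.

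The sequence upstream of both genes is shown because both were nearly lost, and was searched for motifs of factor families that act on inflammatory genes. The windows are the 250 bases before the annotated start (RefSeq, GRCm38.p6), *Aim2* at chr1:173420354-173420603 and *Casp1* at chr9:5298267-5298516, both on the plus strand, with capitals marking each match to the PU.1-type ETS motif GAGGAA on either strand.
Aim2: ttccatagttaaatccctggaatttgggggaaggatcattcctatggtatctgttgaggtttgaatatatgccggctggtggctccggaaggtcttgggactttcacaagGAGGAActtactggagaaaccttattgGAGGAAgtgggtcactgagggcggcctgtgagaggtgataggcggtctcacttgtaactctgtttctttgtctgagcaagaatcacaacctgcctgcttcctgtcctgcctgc
Casp1: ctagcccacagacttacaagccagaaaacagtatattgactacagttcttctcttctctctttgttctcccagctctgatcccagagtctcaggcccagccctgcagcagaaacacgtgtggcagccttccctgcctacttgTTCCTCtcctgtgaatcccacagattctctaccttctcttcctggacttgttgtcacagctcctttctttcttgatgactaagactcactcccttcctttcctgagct
The *Aim2* window held 2 matches, starting 140 and 113 bases before the start, and the *Casp1* window held 1, starting 108 bases before it and lying on the opposite strand. Of the 10 windows matched to members (all but *Gsdmd*), 5 held GAGGAA, from *Aim2*, *Casp1*, *Il1a*, *Nlrp3* and *Pycard*, against 23.3% of 32851 windows of the same length in the genome. No member window held, on either strand, the interferon-stimulated response element in the form GAAA, any 2 bases, GAAA, or the gamma-activated site TTCNNNGAA, which were in 2.98% and 7.02% of all windows. The kappa B motif was searched only in the narrow form GGGA, any 1 base, TTTCC, found in no member window and in 0.356% of all windows, and other forms of it were not searched. The AP-1 motif TGANTCA was in the *Il1a* window, starting 12 bases before the start, and in 6.75% of all windows. A match is a description of these letters, and the absence of one says nothing of the factor.

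*Casp4*, which encodes the lipopolysaccharide-sensing caspase and lies directly beside *Casp1* on chromosome 9, was lower but not lost. It was at 12.9, 13.0 and 12.8 CPM in control libraries and at 4.37, 4.02 and 3.75 CPM in *Atgl* ECKO libraries. The groups did not overlap, and the *Atgl* ECKO level kept a clear signal of 769 reads in all. The mean was 31.4% of control, 3.19-fold lower (log2 difference -1.46 ± 0.06, interval -1.59 to -1.34).

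The second sensor and the adaptor did not share this pattern. *Nlrp3* was at 1.23, 0.953 and 0.981 CPM in control libraries and at 0.776, 1.00 and 0.979 CPM in *Atgl* ECKO libraries, so the groups overlapped at a level just under the filter. Fitted without the filter, its log2 difference was -0.10 (interval -0.26 to 0.07). *Pycard*, the adaptor that joins AIM2 or NLRP3 to caspase-1, was low in both genotypes, at 2.13, 2.21 and 2.12 CPM in control and 2.36, 2.46 and 2.29 CPM in *Atgl* ECKO libraries. Every *Atgl* ECKO library was slightly above every control library, by 1.103-fold between the means, and the log2 difference was 0.10 (interval -0.05 to 0.25). The *Pycard* read numbers were whole in 4 of 6 libraries, so its level is less certain than those of the members with whole read numbers in all 6.

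*Gsdmd*, the substrate that forms the pore, was abundant in both genotypes. It was at 25.4, 26.1 and 27.5 CPM in control libraries and at 27.7, 27.2 and 27 CPM in *Atgl* ECKO libraries, and the groups overlapped. The log2 difference was 0.05 ± 0.04 (interval -0.04 to 0.14). *Gsdmd* was at 11.1 CPM per kb in control and 11.5 CPM per kb in *Atgl* ECKO LECs, and in the latter it was the most abundant member per length. In *Atgl* ECKO LECs the pore substrate was thus at 103.7% of its control mean and the protease at 0.821%.

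The cytokine members were expressed at low levels. *Il1a*, an alarmin that can signal without caspase-1 cleavage, was at 0.849, 0.915 and 0.966 CPM in control libraries and at 1.53, 1.72 and 1.76 CPM in *Atgl* ECKO libraries. All *Atgl* ECKO libraries were above all control libraries, by 1.84-fold between the means (log2 difference 0.48 ± 0.08, interval 0.31 to 0.66). As for *Pycard*, the *Il1a* read numbers were whole in 4 of 6 libraries, and its level is uncertain in the same way. *Il18*, a cytokine matured by caspase-1, had 0, 2 and 1 reads in control and 4, 1 and 3 reads in *Atgl* ECKO libraries. With 3 and 8 reads in all, no difference was detectable in *Il18* at this depth, and no fold change is given.

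Counted by the rule applied to all genes (limma, Benjamini-Hochberg adjusted p under 0.05), 3 of the 6 members that passed the filter were lower (*Aim2*, *Casp1* and *Casp4*), 1 was higher (*Il1a*) and 2 were not called (*Pycard* and *Gsdmd*). Of all 12837 genes tested, 36.2% were called lower and 34.2% higher. By separation of the libraries, 3 members lay wholly below control and 2 wholly above it, where 37.8% and 35.3% of all genes tested did so. The members were chosen on this contrast, so nothing is read from these counts. The median log2 difference of all tested genes was -0.01, and the median of its absolute value was 0.21.

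Among the 9021 genes with a control mean of at least 10 CPM, *Casp1* had the 4th lowest and *Aim2* the 9th lowest *Atgl* ECKO level as a share of control, while *Casp4* ranked 109th. In that set, 24 genes were under 5% of control. *Aim2* and *Casp1* were chosen for this loss, so low ranks and likeness to other nearly lost genes follow from the choice. Nothing is read from the ranks or from the profiles below, which are a description. The genes with the most similar profile over the 6 libraries (Euclidean distance between log2(CPM + 1) values centred on each gene's mean, 12836 genes compared) were, for *Aim2*, *Eif2s3y*, *Kdm5d*, *Prdm16*, *Clec4d* and *Col5a1*, at distances of 0.16, 0.21, 0.23, 0.34 and 0.38. *Casp1* came 6th in the order of likeness to *Aim2* (0.45). For *Casp1*, the nearest genes were *Eif2s3y*, *Aim2*, *Prdm16*, *Kdm5d* and *Clec4d*, at 0.43, 0.45, 0.55, 0.60 and 0.73. The closest profile to both was that of a Y-linked gene: *Eif2s3y* was at 29.8, 29.5 and 28.6 CPM in control and at 0.333, 0.357 and 0.352 CPM in *Atgl* ECKO libraries. All 4 Y-linked genes tested were at 1.16% to 1.45% of control in *Atgl* ECKO LECs, the same range as *Aim2*, so the groups differed in Y-linked expression as well as in genotype. The part of that difference in the values of *Aim2* and *Casp1*, which lie on chromosomes 1 and 9, was not tested.

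**Figure D2:**
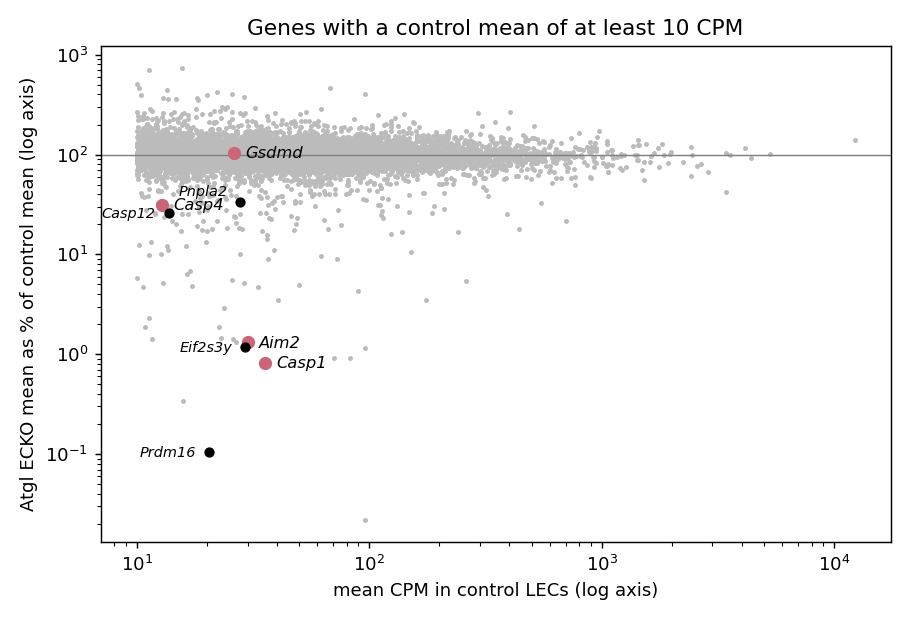
*Atgl* ECKO mean as a percentage of the control mean (log axis) against the control mean in CPM (log axis) for 9021 genes with a control mean of at least 10 CPM, with *Aim2*, *Casp1*, *Casp4* and *Gsdmd* in red and reference genes in black. *Casp1* (0.821%) and *Aim2* (1.31%) lie far below the band of most genes, close to the Y-linked *Eif2s3y* (1.18%), and *Gsdmd* lies at the line of no change.

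The genes beside *Aim2* and *Casp1* on their chromosomes were examined to see how far the low levels extended. The neighbours that were tested changed in both directions. The gene order after *Aim2* on chromosome 1 is a cluster of PYHIN genes, and of the 8 genes tested there, 3 were lower, 2 higher and 3 not called, with log2 differences from -1.07 (*Ifi203*) to 1.26 (*Ifi209*). None of the 10 genes on the other side had a value, so the extent on that side was not tested. Around *Casp1*, 10 neighbours outside the member list were tested, of which 5 were lower, 2 higher and 3 not called. The lower ones included *Casp12*, next to *Casp4* (3.84-fold, log2 difference -1.69, adjusted p = 1.80e-12), *Mmp3* (2.92-fold, -1.36, adjusted p = 1.88e-10) and *Kbtbd3* (1.54-fold, -0.42, adjusted p = 0.000387). *Casp1*, *Casp4* and *Casp12* thus formed a run of 3 adjacent caspase genes at 0.821%, 31.4% and 26% of control, and the next gene tested, *Pdgfd*, was 1.12 times its control level. The median log2 difference of a chromosome ranged from -0.21 (chromosome 2) to 0.42 (chromosome 14) apart from the Y chromosome, and was -0.07 for chromosome 1 and -0.10 for chromosome 9. With these medians subtracted, the *Casp1* difference was -4.73 on the log2 scale.

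**Figure D3:**
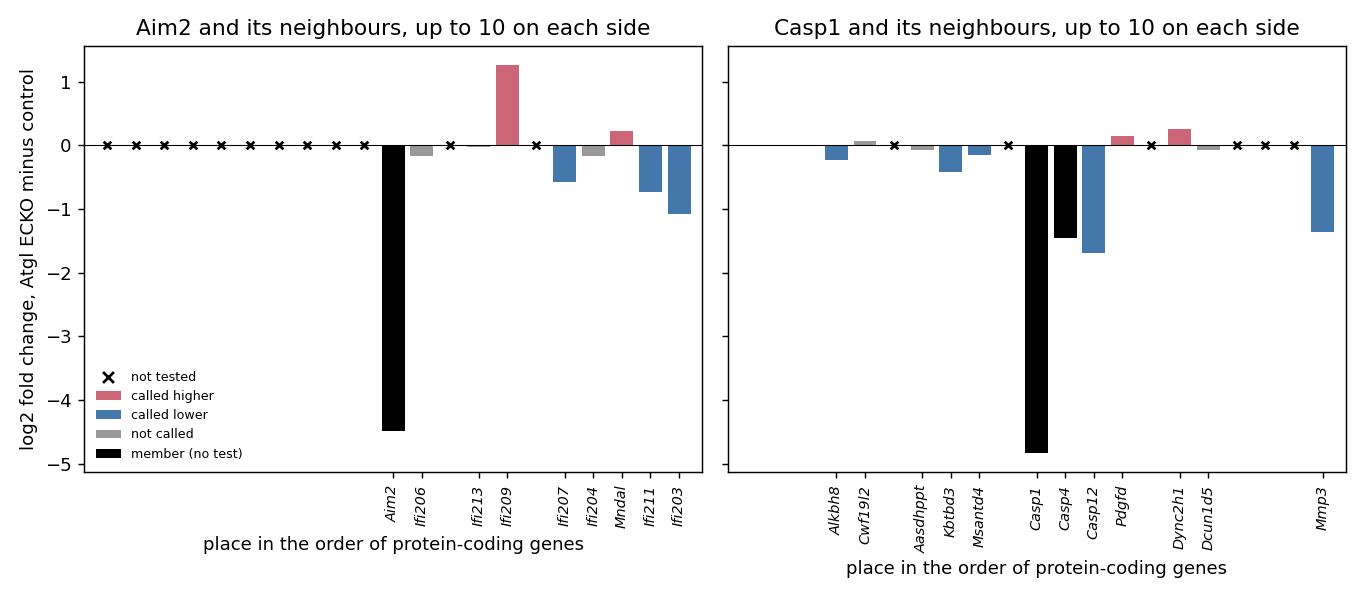
Log2 difference between *Atgl* ECKO and control LECs for *Aim2* and *Casp1* and the genes beside them, by place in the order of protein-coding genes (crosses, no test). Black bars (members) reach -4.49 for *Aim2*, -4.83 for *Casp1* and -1.46 for *Casp4*, while the neighbours range from -1.07 to 1.26 and from -1.69 to 0.26.

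Other genes of the pathway were grouped in 10 lists, of which 95 genes were tested and 15 were below the filter. Of the 95, 31 (32.6%) were higher, 42 (44.2%) lower and 22 not called, with a median log2 difference of -0.10, beside 34.2% higher, 36.2% lower and a median of -0.01 over all genes. None reached the low share of control seen for *Aim2* and *Casp1*, the lowest tested being *Naip5* at 9.41%. *Aim2* and *Casp1* were chosen for that low share, so nothing is read from this difference. The log2 differences below are from the limma fit, with p-values adjusted over all 12837 genes.

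The other PYHIN genes, which are relatives of *Aim2* with DNA-binding domains, did not move together. Of 9 tested, 4 were lower, 2 higher and 3 not called, with a median of -0.17. *Ifi205* was 3.89-fold lower (log2 difference -1.66, adjusted p = 2.56e-10), *Ifi203* 2.25-fold lower (-1.07), *Ifi211* 1.73-fold lower (-0.74) and *Ifi207* 1.67-fold lower (-0.57). *Ifi209* rose 3.29-fold (1.26, adjusted p = 3.31e-09) from a mean of 1.56 to 5.12 CPM. *Ifi204*, a sensor upstream of STING, was at 15.2 and 13.3 CPM (-0.16, adjusted p = 0.153). These genes are near-identical in part, and only 1 of the 9 had whole read numbers in all 6 libraries, so the split of reads between them is uncertain.

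The remaining inflammasome sensors centred on the NAIP proteins, which detect bacterial flagellin and secretion-system proteins. *Naip5* was 10.6-fold lower (2.97 to 0.279 CPM, log2 difference -1.64, adjusted p = 1.21e-10) and *Naip2* 2.06-fold lower (13.2 to 6.41 CPM, -0.94, adjusted p = 5.23e-10). *Naip6*, below the filter, was at 1.43, 1.56 and 1.45 CPM in control and 0.0816, 0.0811 and 0.0307 CPM in *Atgl* ECKO libraries. *Nlrc4*, the partner of the NAIPs, was below the filter. The *Naip* genes are close copies of one another, so their separate values are uncertain. The RNA helicase gene *Dhx15* was at 215.8 and 205.2 CPM and was not called (-0.07, adjusted p = 0.0629), as was *Dhx33*.

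Of 7 other caspase genes tested, 6 were lower, with a median of -0.36 over the list. *Casp12*, an inflammatory caspase linked to endoplasmic reticulum stress in mice, was the lowest, at 14.3, 13.3 and 13.6 CPM in control and 3.88, 3.56 and 3.27 CPM in *Atgl* ECKO libraries. *Casp8*, which starts death-receptor apoptosis and can cleave gasdermin D, was 1.40-fold lower (103.8 to 74.1 CPM, log2 difference -0.48, adjusted p = 8.65e-10). *Casp6* and *Casp2* were 1.41-fold and 1.29-fold lower (-0.45 and -0.36).

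Among genes for other membrane-rupturing proteins, 2 of 4 tested rose, 1 fell and 1 was not called. *Gsdme*, a gasdermin cleaved by executioner caspases, was 1.31-fold higher (log2 difference 0.36, adjusted p = 1.13e-05), and *Mlkl*, the pore-forming protein of necroptosis, 1.22-fold higher (0.28, adjusted p = 7.52e-07). *Ripk3*, the kinase that activates MLKL, was 1.36-fold lower (189.8 to 139.3 CPM, -0.44, adjusted p = 3.00e-09). *Ninj1*, which ruptures the membrane after pyroptosis, was at 33.2 and 34.9 CPM (0.07, adjusted p = 0.15).

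Genes for the other ligands, decoys and receptors of the IL-1 family moved in both directions. Of 3 ligands and decoys tested, 1 was lower, 1 higher and 1 not called. *Il33*, an endothelial alarmin, was 2.73-fold lower (2.77 to 1.02 CPM, log2 difference -0.91, adjusted p = 1.20e-07), *Sigirr*, an inhibitory receptor, rose 1.95-fold (11.3 to 22.02 CPM, 0.90, adjusted p = 2.56e-10), and *Il18bp*, which neutralizes IL-18, was at 3.04 and 2.55 CPM (-0.18, adjusted p = 0.0567). Of 10 receptors and adaptors tested, 5 were higher, 3 lower and 2 not called. *Il1r1*, the signalling receptor for IL-1α and IL-1β, was at 92.7, 86.5 and 87.7 CPM in control and 39.4, 38.6 and 38.7 CPM in *Atgl* ECKO libraries. All *Atgl* ECKO libraries were below all control libraries, by 2.29-fold between means (-1.17, adjusted p = 1.21e-13). *Irak3*, which restrains signalling from the receptor, was 1.88-fold higher (0.84, adjusted p = 1.10e-09), and *Il1rap*, the co-receptor, was 1.14-fold higher (0.19), a direction that turned (-0.056) with chromosome medians subtracted. The adaptor *Myd88* was at 27.6 and 26.2 CPM (-0.07, adjusted p = 0.116).

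Genes of the other cytosolic DNA pathway, through cGAS and STING, moved in both directions. Of 12 tested, 5 were higher, 5 lower and 2 not called, with a median of -0.11. *Mb21d1*, which encodes cGAS, was 1.32-fold lower (15.3 to 11.6 CPM, log2 difference -0.37, adjusted p = 6.42e-06) and *Tmem173*, which encodes STING, 1.16-fold lower (45.9 to 39.6 CPM, -0.21, adjusted p = 8.56e-05). *Samhd1*, which limits nucleotide pools, was 1.24-fold lower (-0.30). The RNase H2 subunit genes *Rnaseh2b*, *Rnaseh2a* and *Rnaseh2c* were 1.48-fold, 1.28-fold and 1.32-fold higher (0.52, 0.34 and 0.37). With chromosome medians subtracted, *Rnaseh2c* turned to -0.021 and *Rnaseh2b* (0.10, adjusted p = 0.125) and *Samhd1* (-0.09, adjusted p = 0.0789) were no longer called.

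Of 16 genes for triggers of inflammasomes and guanylate binding proteins (GBPs, which open bacterial and vacuolar membranes), 9 were lower, 3 higher and 4 not called. All 6 *Gbp* genes tested were lower. *Gbp4* and *Gbp6* were each 3.90-fold lower (log2 differences -1.74 and -1.66, adjusted p = 3.67e-09 and 1.17e-08), and *Gbp5* 2.498-fold lower (-0.76). *Panx1*, a channel that releases ATP, was 3.03-fold lower (12.4 to 4.08 CPM, -1.39, adjusted p = 1.93e-11), and *P2rx7*, the ATP receptor upstream of NLRP3, was 1.49-fold higher (61.3 to 91.2 CPM, 0.57, adjusted p = 2.99e-10).

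Of 14 inhibitors tested, 5 were higher, 5 lower and 4 not called. *Tnfaip3*, which encodes the ubiquitin-editing protein A20, rose 2.25-fold (25.7 to 57.9 CPM, log2 difference 1.14, adjusted p = 5.32e-12), and *Serpinb1a*, an inhibitor of neutrophil proteases and of caspase-1 activation, 1.87-fold (0.87, adjusted p = 1.77e-10). *Serpinb9* was 1.71-fold lower (-0.76, adjusted p = 3.51e-10), and *Nlrc3* 1.76-fold lower (-0.62).

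Interferon signalling was examined because *Aim2*, *Casp1* and *Casp4* are interferon-inducible. Of 16 factors tested, 7 were higher, 6 lower and 3 not called, with a median of 0.04. *Jak1*, a receptor-bound kinase, was 1.46-fold lower (log2 difference -0.54, adjusted p = 1.10e-10). *Jak2* was 1.54-fold higher (0.62, adjusted p = 4.14e-11), and the receptor genes *Ifngr1* and *Ifnar2* were 1.30-fold and 1.32-fold higher (0.37 and 0.39). *Irf1*, a transcription factor required for AIM2 activation by some bacteria in mouse cells, was at 17.7 and 17.8 CPM (0.01, adjusted p = 0.882).

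**Figure D4:**
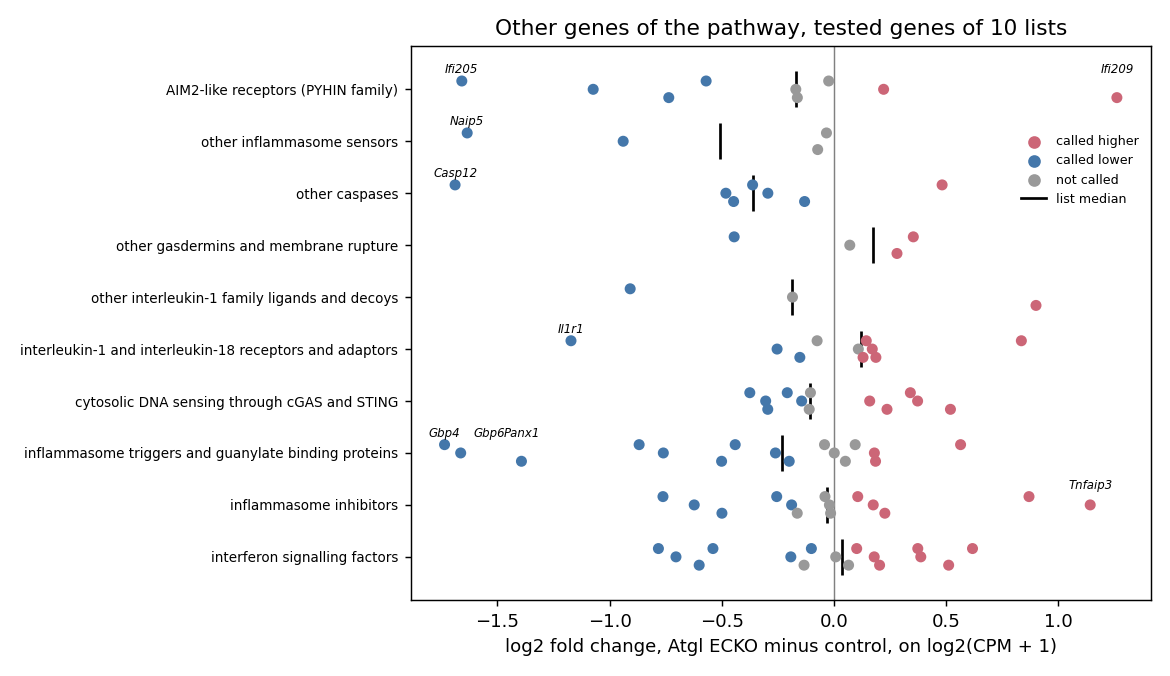
Log2 difference between *Atgl* ECKO and control LECs for each tested gene of the 10 pathway lists (points, coloured by call) with the median of each list (black bars). No gene lies below -1.74, whereas *Aim2* and *Casp1*, which are not drawn, were at -4.49 and -4.83.

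The control libraries differed from one another in the PYHIN and *Gbp* genes but little in *Aim2*, *Casp1* and *Casp4*. Control library 1 was the lowest of the 3 control libraries for 9 of the 9 PYHIN genes tested and for 6 of the 6 *Gbp* genes. The coefficient of variation over control libraries was 14.9% to 44.9% for the PYHIN genes and 14.9% to 28.8% for the *Gbp* genes. *Ifi203*, for example, was at 18.2, 29.2 and 28.4 CPM and *Ifi205* at 9.71, 13.5 and 13.0 CPM in control libraries 1, 2 and 3. Over the same libraries the coefficient of variation was 2.86% for *Aim2*, 1.27% for *Casp1* and 0.532% for *Casp4*, and *Aim2* was highest in control library 1. This difference in spread is a description of 3 libraries and was not tested. Without control library 1, the log2 differences of *Aim2*, *Casp1* and *Casp4* were -4.46, -4.82 and -1.46, and *Ifi204* was called lower (-0.33, adjusted p = 5.36e-05).

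**Figure D5:**
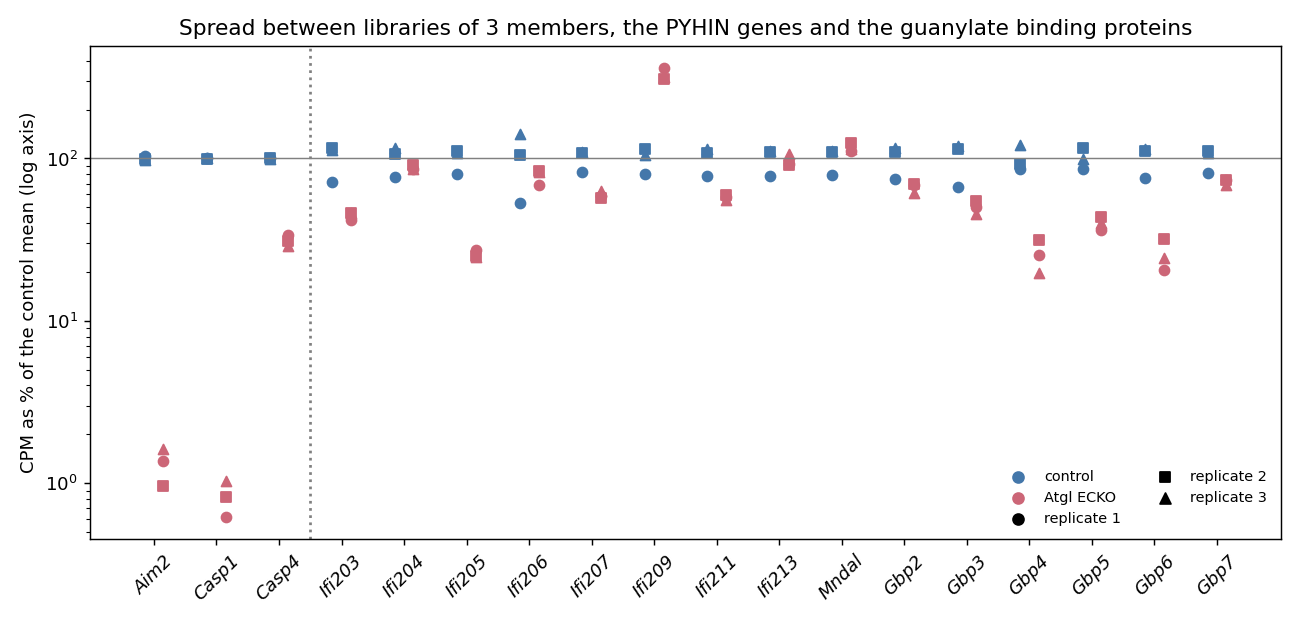
CPM of each library as a percentage of the control mean (log axis) for *Aim2*, *Casp1* and *Casp4* (left of the dotted line), the 9 PYHIN genes and the 6 *Gbp* genes tested. The coefficient of variation of the control libraries is at most 2.86% for the 3 members, whereas control replicate 1 is the lowest control library for all 9 PYHIN and all 6 *Gbp* genes.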

How the data were processed

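Total RNA of 6 LEC libraries (3 control, 3 *Atgl* ECKO) was sequenced by the study (the labels name a kit for small RNA, although the table lists protein-coding genes), aligned with STAR and quantified with the Partek E/M step in Partek Flow (versions not given in the sources used here), and the submitters' processing notes name the hg19 build although the gene symbols are mouse. The authors deposited read counts scaled to each library total (CPM) with an offset of 0.0001, and a second sheet of z-scores was not used. Of 20430 lines, 21 with dates in place of symbols were left out. Reads were recovered by dividing by the value of 1 read, and 70.4% to 71.4% of values were whole within 0.1, so no count test was used. Depth was 55.6 to 69.1 reads per CPM in each library, and the counting errors given cover the counting of reads only.

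Genes averaging 1 CPM or more over the libraries were tested on log2(CPM + 1) with limma 3.58.1 (R 4.3.3, trended, moderated, 2-sided, Benjamini-Hochberg adjustment, threshold 0.05, 12837 genes), which was also tested on simulated data. The members and lists were chosen with earlier results of these data known. Named genes are the members, up to 5 genes per list with the smallest adjusted p, any further one named as not called or below the filter, up to 5 neighbours per locus with the largest change and the 5 nearest profiles. *Tmem173*, *Pdgfd* and the examples of spread were added after their values were seen. Exon lengths for CPM per kb are unions of exons in GENCODE M21. Gene order and promoters come from RefSeq tables. Alternatives changed the pseudocount, filter, scaling, variance model, chromosome medians, replicate block and libraries left out. Some items are not reported here.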

Additional observations from a re-analysis of the deposited data

How the results depend on the processing

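The log2 difference of *Aim2* (-4.49) was -5.95 with a pseudocount of 0.1 CPM, -3.29 with 3 CPM, -4.35 after quantile normalization and -6.25 as a ratio of mean CPM, and that of *Casp1* (-4.83) was -6.53, -3.56, -4.65 and -6.93 under the same alternatives and -4.73 with chromosome medians removed. The pseudocount and the ratio act by construction on genes near 0 CPM; the cause of the other shifts was not tested. With chromosome medians removed, *Gsdmd* turned to -0.026, *Dhx15* to 0.01, *Il1rap* to -0.056, *Myd88* to 0.028 and *Rnaseh2c* to -0.021, and *Irf1* turned to -0.009 after quantile normalization. Over the 16 settings, 36 of 46 named genes that are no members kept direction and call throughout. No count of called genes moved by over 1.5 times.

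Leaving out 1 library at a time gave -4.53 to -4.43 for *Aim2*, -4.87 to -4.79 for *Casp1*, 4051 to 4369 genes higher and 4238 to 4596 lower in all, 30 to 32 pathway genes higher and 40 to 47 lower, and -1.52 to -1.43 for *Pnpla2*. *Irf1* ranged from -0.034 to 0.048 and turned to -0.014 without *Atgl* ECKO replicate 1 and to -0.034 without control replicate 1. Same-numbered libraries deviated together weakly (correlations 0.09, 0.09 and -0.15), so the numbers were not taken as pairs; with the replicate number as a block, 4367 genes were higher and 4602 lower, 31 and 45 of the pathway lists, and *Aim2* and *Casp1* were at -4.49 and -4.83. The precision of *Il18*, *Nlrp3* and the residual *Aim2* and *Casp1* reads is limited by depth.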
